A study of Homo sapiens with 11 samples.

Results

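The miR-99 and miR-100 family was described here through its 6 mature miRNAs, hsa-miR-99a-5p, hsa-miR-99a-3p, hsa-miR-99b-5p, hsa-miR-99b-3p, hsa-miR-100-5p and hsa-miR-100-3p. They were chosen by name among the 2576 mature miRNAs counted in both experiments, and all 6 passed the low-count filter in each. Small RNA was sequenced from SH-SY5Y cells, a clonal human neuroblastoma line derived from SK-N-SH, that were differentiated into neuron-like cells with 10 µM all-trans retinoic acid (ATRA) for 7 days. The co-treatment experiment held 3 controls with ATRA alone and 3 cultures that received 10 µM H2O2 throughout the 7 days with ATRA. The pre-treatment experiment held 2 controls with ATRA alone and 3 cultures exposed to 10 µM H2O2 for 72 hours, which was removed before ATRA was added. Experiment and any batch between the experiments cannot be told apart, and the line is 1 clone.

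A microRNA is cut from a hairpin RNA whose arms give a 5p and a 3p strand. One of these strands is usually kept in the silencing complex, where it pairs with messenger RNAs mainly through its seed, here taken as bases 2 to 8, and lowers their output. The miR-99 and miR-100 miRNAs form a conserved family known for repressing MTOR, the kinase that couples nutrients to growth, and IGF1R, a growth factor receptor. Their genes lie beside let-7 and miR-125 genes.

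The sequences are shown because the family is defined by its seeds and because 2 of its members differ at a single base. They were taken from RefSeq (GRCh38.p14), are written 5′ to 3′, and carry the seed in capitals:
hsa-miR-99a-5p: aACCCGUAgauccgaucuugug
hsa-miR-99b-5p: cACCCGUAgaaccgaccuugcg
hsa-miR-100-5p: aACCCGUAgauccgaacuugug
hsa-miR-99a-3p: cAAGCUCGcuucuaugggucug
hsa-miR-99b-3p: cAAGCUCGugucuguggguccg
hsa-miR-100-3p: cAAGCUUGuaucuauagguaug

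The 3 members of the 5p strand had the same seed, which no other of the 2370 mature human miRNAs in the RefSeq table carried. Counted from 1 at the 5′ end, miR-99a-5p differed from miR-100-5p by A16U alone. Separate counts of these 2 miRNAs are therefore uncertain wherever reads with a mismatch were accepted. miR-99b-5p differed from miR-100-5p at 4 bases (A1C, U11A, A16C and U21C), none of them in the seed. Among the 3p strands, miR-99a-3p and miR-99b-3p shared a seed, whereas miR-100-3p differed from miR-99a-3p within it (C7U). The base composition also differed, with a GC content of 63.6% in both strands of miR-99b, 50% in miR-99a-5p and miR-100-5p, 54.5% in miR-99a-3p and 36.4% in miR-100-3p.

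On GRCh37, the miR-99a hairpin lies at chr21:17911409-17911489 on the plus strand, within MIR99AHG, a long non-coding RNA gene, and overlaps none of its exons. The miR-100 hairpin lies at chr11:122022937-122023016 on the minus strand, within the long non-coding RNA gene MIR100HG and also outside its exons. The miR-99b hairpin lies at chr19:52195865-52195934 on the plus strand, within an intron of the protein-coding gene SPACA6, and overlaps an exon of SPACA6-AS1 on the opposite strand. Only 104 bases separate the miR-99b hairpin from that of let-7e, which is followed by the miR-125a hairpin after a further 389 bases. The miR-99a hairpin is 653 bases from that of let-7c, and the miR-100 hairpin 5635 bases from that of let-7a-2.

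The libraries held 5343953 to 8927582 counts. Log2 levels correlated between replicates at Pearson's r = 0.969 to 0.986 within the other groups, but at 0.923 between the 2 pre-treatment controls (945 miRNAs). Of 7 neural miRNAs, 6 were above 3 counts in all libraries, while miR-124-3p, the neuron-enriched miRNA, had 0 to 7 counts per library. Pre-treatment control 1 stood apart, with summed levels of 119 CPM (counts made comparable between libraries of different depth) for the 4 white blood cell miRNAs against 9.36 to 22.2 in the other libraries, and of 184 CPM for the 5 measured of 6 listed epithelial miRNAs against 39.8 to 51.7. The largest parts of these sums were miR-223-3p, at 76.3 CPM in control 1, and miR-205-5p, at 142 CPM. The other measured epithelial miRNAs were within the ranges of the other libraries. Of the white blood cell list, miR-142-3p, miR-142-5p and miR-150-5p were also highest in control 1. They were at 25.7, 12.0 and 4.66 CPM there, against 4.01 to 13.9, 1.17 to 6.49 and 1.41 to 4.39 CPM elsewhere. Sums of other marker lists also moved with the groups. In pre-treatment, the controls against the H2O2 libraries had sums of 1772 to 2261 against 3163 to 3430 CPM for the 7 neural miRNAs, 2.12 to 3.70 against 10.5 to 15.04 CPM for the 4 red blood cell miRNAs and 4707 to 10832 against 11791 to 12380 CPM for the 2 endothelial ones. None of these ranges overlapped, whereas the 4 mesenchymal miRNAs did, at 10291 and 19293 against 13922 to 15968 CPM. Not every member followed its sum. Among the neural miRNAs, miR-128-3p, miR-138-5p and miR-9-3p rose without overlap, and the others overlapped. Among the red blood cell miRNAs, miR-451a and miR-144-5p rose without overlap, and miR-144-3p and miR-486-5p overlapped. In co-treatment, controls against H2O2 libraries had 15451 to 16767 against 10138 to 13216 CPM for the mesenchymal list, 11250.5 to 19340 against 7548 to 10563 CPM for the endothelial list, 17.9 to 22.2 against 9.36 to 16.8 CPM for the white blood cell list and 46.3 to 51.7 against 39.8 to 44.3 CPM for the epithelial list. These ranges did not overlap, and those of the neural list (2260 to 3032 against 2347 to 2535 CPM) and the red blood cell list (4.27 to 7.09 against 5.85 to 9.99 CPM) did. By member, miR-143-3p, miR-199a-5p, miR-126-5p, miR-142-5p and miR-200b-3p were lower without overlap. The other measured members of the mesenchymal, endothelial, white blood cell and epithelial lists overlapped. The part of these differences in the results below was not tested, so pre-treatment log2 fold changes (log2FC) are also given without each control.

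Most of the family's reads came from miR-99b-5p. The 5p strands of the family together made up 1.74% to 2.1% of all counts in the co-treatment controls and 2.66% to 3.38% in the co-treated H2O2 libraries. They made up 5.83% and 3.96% in the 2 pre-treatment controls and 1.95% to 2.33% in the pre-treated H2O2 libraries. In the co-treatment controls, miR-99b-5p accounted for 83.0% ± 1.93 (SD, n = 3) of these reads, miR-99a-5p for 16.8% ± 1.89 and miR-100-5p for 0.236% ± 0.0412. By mean level, miR-99b-5p was the 15th most abundant miRNA in the co-treatment controls, the 7th in the co-treated H2O2 group, the 6th in the pre-treatment controls and the 12th in the pre-treated H2O2 group. Shares between different miRNAs are shares of reads, not of molecules.

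**Figure D1:**
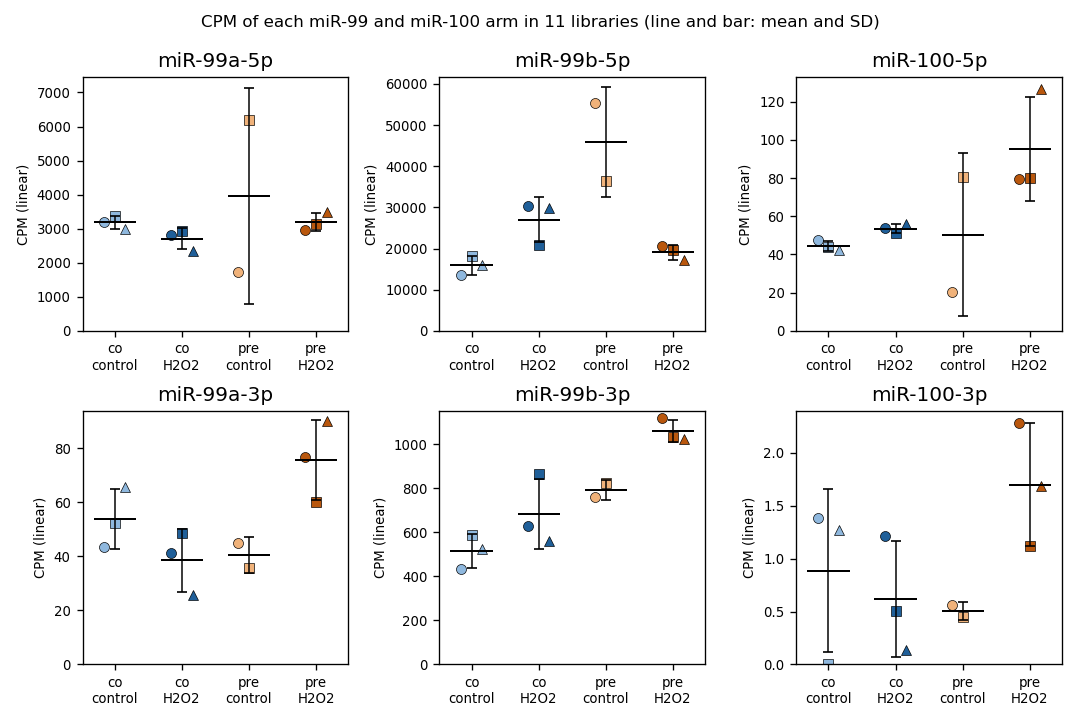
Level of each family member in CPM (scaled by TMM, the trimmed mean of M-values, over all 11 libraries, linear axis) by group. Circles, squares and triangles are replicates 1, 2 and 3, and the line and bar give the mean and SD. For miR-99b-5p the co-treated H2O2 libraries lie above their controls and the pre-treated H2O2 libraries below theirs, and for miR-99a-5p and miR-100-5p the 2 pre-treatment controls lie far apart.

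miR-99b-5p was higher with H2O2 in co-treatment and lower with H2O2 in pre-treatment. Its levels were 13610, 18202 and 15924 CPM in the co-treatment controls and 30427, 20765 and 29971 CPM in the co-treated H2O2 libraries. Every H2O2 library was above every control, the second of them by the smallest margin. The mean rose from 15912 ± 2296 CPM to 27054 ± 5451 CPM (SD, n = 3 each), a fold change of 1.66 (log2FC 0.73, SE 0.23, adjusted p = 0.0354, edgeR's exact test). In pre-treatment, the controls were at 55427 and 36422 CPM and the H2O2 libraries at 20512, 19627 and 17095 CPM. All 3 H2O2 libraries were below both controls, which differed from each other by 1.52-fold. The level fell 2.45-fold (log2FC -1.30, SE 0.27, adjusted p = 0.00491, edgeR's exact test).

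The levels of miR-99b-5p also differed between the controls of the 2 experiments, all measured after differentiation. By mean level the groups ran from the co-treatment controls (15912 CPM) through the pre-treated H2O2 group (19078 ± 1773 CPM, n = 3) and the co-treated H2O2 group (27054 CPM) to the pre-treatment controls (45924 ± 13438 CPM, n = 2). The lowest 2 of these groups overlapped, whereas each of the other neighbours in this order was separated by its ranges. The response to H2O2 was 2.03 log2 units lower in pre-treatment than in co-treatment (SE 0.35, adjusted p = 0.00211, edgeR's quasi-likelihood interaction test over all 11 libraries). Leaving out any of the 11 libraries gave differences of -2.37 to -1.90, and each passed, with -1.90 (adjusted p = 0.000541) without control 1 of pre-treatment.

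miR-99b-5p was the only family member called in either experiment, a call being an adjusted p below 0.05 with an absolute log2FC above 0.6. This was 1 of 6 members in co-treatment, where 26.2% of the 790 miRNAs tested were called and 10.6% were called as raised. It was likewise 1 of 6 in pre-treatment, where 15.3% of the 868 miRNAs tested were called and 9.91% were called as lowered. The groups did not overlap for 2 of 6 members in co-treatment (41.6% of all miRNAs tested) and for 4 of 6 in pre-treatment (46% of all miRNAs tested). The 4 include miR-100-3p, which passed the low-count filter in pre-treatment only through its H2O2 libraries, so its lack of overlap is no support. With the quasi-likelihood test of edgeR, the call of miR-99b-5p was kept in co-treatment (adjusted p = 0.0247, 22.9% of all miRNAs called) and lost in pre-treatment (adjusted p = 0.0520, 1.96% of all miRNAs called). The median log2FC of the members was -0.01 in co-treatment and 0.61 in pre-treatment, beside -0.04 and -0.19 over all miRNAs tested. Without control 1 the pre-treatment median was 0.32 for the members and 0.07 over all, and without control 2 it was 1.07 and 0.21. At an unadjusted p below 0.05, 1 of 6 members passed in co-treatment, beside 40.1% of all miRNAs tested, and 3 of 6 in pre-treatment, beside 28.6%. The same limit holds here, as miR-100-3p is among these 3 and enters the pre-treatment medians of the members.

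The log2FC of miR-99b-5p moved with GC content, and its calls were lost without some single libraries. In co-treatment, miRNAs with the GC content of miR-99b-5p were on average 0.55 log2 units higher in the H2O2 libraries relative to controls, and in pre-treatment 0.53 log2 units lower, along the libraries' trends on GC content. With these trends as an offset, log2FC was 0.18 in co-treatment (adjusted p = 0.653) and -0.77 in pre-treatment (adjusted p = 0.104), and the difference between the responses was -1.02 (adjusted p = 0.0624, edgeR's quasi-likelihood test for all 3). Whether GC content or a response shared by GC-rich miRNAs moved these values cannot be told apart. In co-treatment the call was lost without control 1, H2O2 1 or H2O2 3 (adjusted p = 0.152, 0.155 and 0.141, edgeR's exact test), with log2FC of 0.69, 0.67 and 0.69. Of all miRNAs tested, 12.9%, 15.5% and 12.9% were called there, beside 26.2% with all libraries. In pre-treatment the call was lost without H2O2 1, 2 or 3 (adjusted p = 0.137, 0.154 and 0.136, edgeR's exact test), with log2FC of -1.32, -1.26 and -1.20. Here 1.55%, 1.08% and 1.91% of all miRNAs tested were called, beside 15.3% with all libraries. Without control 1 of pre-treatment, log2FC was -0.91, and without control 2 it was -1.29. Neither control can be taken as the cleaner one. Control 1 stood apart in marker sums, and control 2 lay outside the other libraries for miR-99a-5p (6201 CPM, at most 3479 CPM elsewhere).

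**Figure D2:**
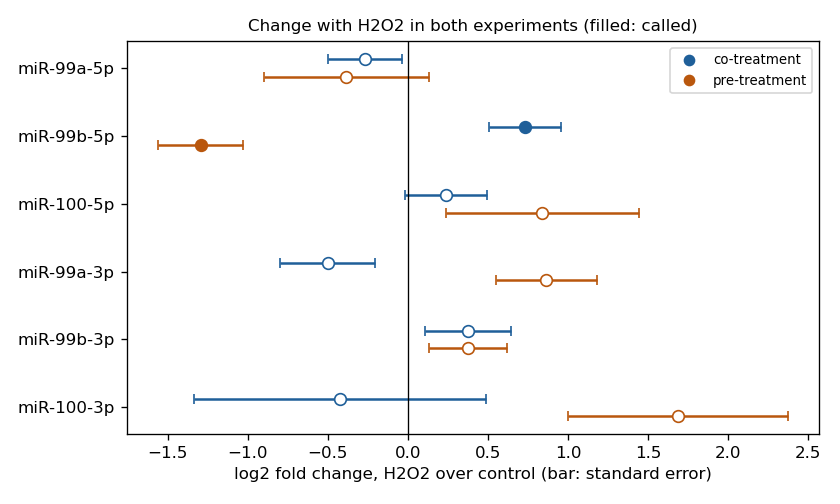
Log2 fold change of each family member with H2O2 over control in co-treatment and pre-treatment, with standard errors from edgeR's quasi-likelihood fit. Filled points are calls by the exact test, which are those of miR-99b-5p alone, at 0.73 in co-treatment and -1.30 in pre-treatment.

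**Figure D3:**
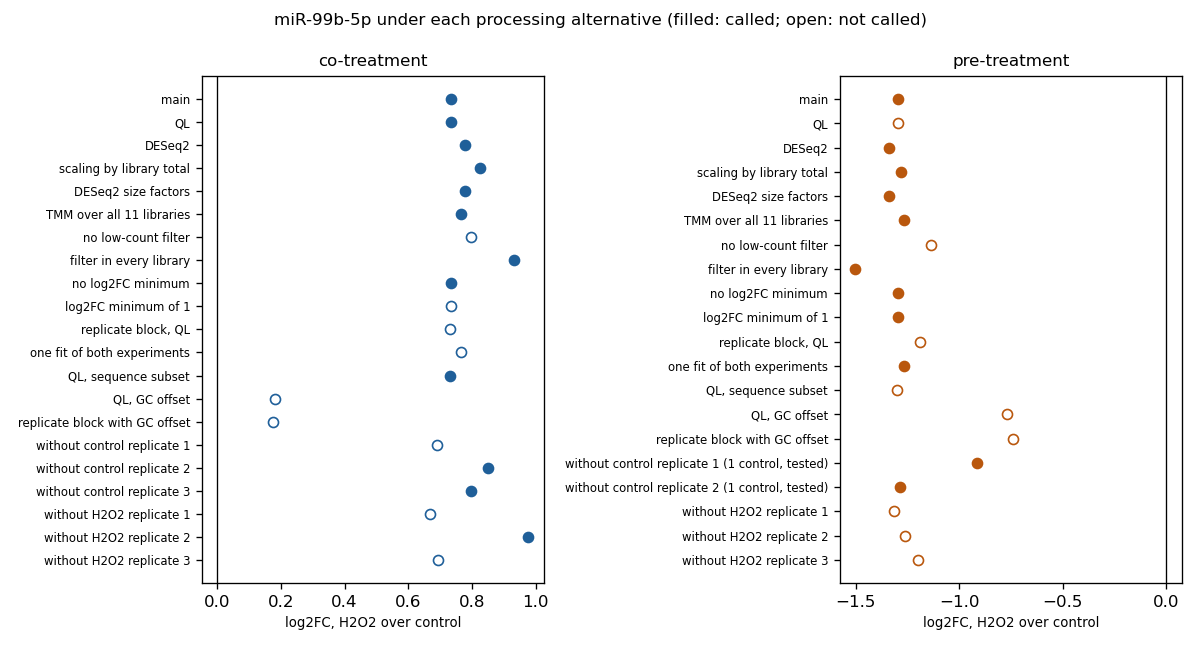
Log2 fold change of miR-99b-5p (horizontal axis) under each processing alternative (rows, QL for quasi-likelihood test), with calls filled. In co-treatment all points are above 0 and in pre-treatment all are below 0, and the points nearest to 0 are those with a GC offset, with 0.17 and 0.18 in co-treatment and -0.74 and -0.77 in pre-treatment.

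The other strand of the same hairpin, miR-99b-3p, was not called in either experiment. Its levels were 435, 588 and 524 CPM in the co-treatment controls and 629, 864 and 560 CPM in the co-treated H2O2 libraries, and the groups overlapped. In pre-treatment the controls were at 762 and 824 CPM and the H2O2 libraries at 1118, 1035 and 1026 CPM. Here every H2O2 library was above both controls, opposite to miR-99b-5p. The change did not pass in either experiment, with log2FC 0.38 (SE 0.27, adjusted p = 0.335) in co-treatment and 0.38 (SE 0.25, adjusted p = 0.50) in pre-treatment (edgeR's exact test). Without control 1 or control 2 of pre-treatment, log2FC was 0.38 and 0.73. With a GC offset it was -0.17 in co-treatment (adjusted p = 0.726) and 0.81 in pre-treatment (adjusted p = 0.188, edgeR's quasi-likelihood test).

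The ratio of 5p to 3p counts of miR-99b, which needs no scaling between libraries, is a description without a test. It was 31.3, 31.0 and 30.4 in the co-treatment controls and 48.4, 24.0 and 53.5 in the co-treated H2O2 libraries. The controls were nearly equal, while the H2O2 libraries lay on both sides of them. In pre-treatment the controls had ratios of 72.7 and 44.2, and their H2O2 counterparts 18.3, 19.0 and 16.7. Both strands of miR-99b have the same GC content, so this ratio compares sequences of equal GC content. The pre-treated H2O2 libraries had the lowest values of all 11 libraries and the pre-treatment controls did not overlap with them. On the log2 scale the difference between H2O2 and control was -1.30 without control 1 and -2.02 without control 2.

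**Figure D4:**
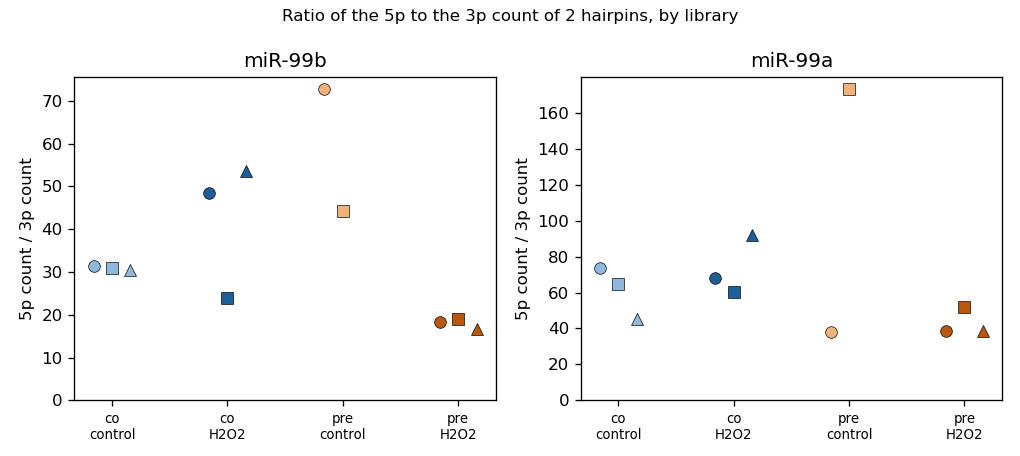
Ratio of the 5p count to the 3p count of miR-99b and miR-99a in each library (linear axes), with circles, squares and triangles for replicates 1, 2 and 3. For miR-99b the 3 pre-treated H2O2 libraries lie at 16.7 to 19.0, below all others, and for miR-99a pre-treatment control 2 lies at 173, above all others.

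miR-99a-5p, which has the same seed, was not called in either experiment. Its levels were 3192, 3374 and 2979 CPM in the co-treatment controls and 2807, 2935 and 2349 CPM in the co-treated H2O2 libraries. Each H2O2 library was below the lowest control on this scale, and the ranges overlapped when co-treatment was scaled by itself, as in its test. log2FC was -0.27 (SE 0.23, adjusted p = 0.485, edgeR's exact test). In pre-treatment the H2O2 libraries were close together at 2951, 3141 and 3479 CPM, but the controls were at 1713 and 6201 CPM, one below and one above all of them. Control 2 was 3.62-fold above control 1, against a median of 1.89-fold between the higher and the lower control over 872 miRNAs. log2FC was -0.39 (SE 0.51, adjusted p = 0.675, edgeR's exact test). It was -0.94 without control 1 and 1.15 without control 2, so that the sign rested on which control was kept.

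miR-100-5p was the least abundant 5p strand and behaved like miR-99a-5p in the pre-treatment controls. It was at 47.5, 43.8 and 42.2 CPM in the co-treatment controls and at 53.6, 51.0 and 56.1 CPM in the co-treated H2O2 libraries. These groups did not overlap, and the difference was small, with log2FC 0.24 (SE 0.26, adjusted p = 0.542, edgeR's exact test). In pre-treatment the controls were at 20.3 and 80.6 CPM and the H2O2 libraries at 79.3, 80.0 and 126.9 CPM. Control 2 was level with the lower H2O2 libraries and 3.96-fold above control 1. log2FC was 0.84 (SE 0.60, adjusted p = 0.434, edgeR's exact test), and it was 0.26 without control 1 and 2.48 without control 2.

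The ratio of miR-99a-5p to miR-100-5p counts was 67.2, 77.1 and 70.6 in the co-treatment controls and 52.3, 57.5 and 41.9 in the co-treated H2O2 libraries. Ratios of 84.2 and 77.0 were found in the pre-treatment controls and of 37.2, 39.3 and 27.4 in the pre-treated H2O2 libraries. In both experiments every H2O2 library was below every control, a description without a test. The 2 controls, which differed so much in the level of either miRNA, were thus close in their ratio, and the pre-treated H2O2 libraries were the lowest of all. For each count of miR-99a-5p, pre-treatment control 1 had 32.4 counts of miR-99b-5p and control 2 had 5.87. The share of miR-99b-5p among the family's 5p counts was 97.0% in control 1 and 85.3% in control 2, beside 85.2% ± 2.35 (SD, n = 3) in the pre-treated H2O2 libraries. In co-treatment it was 83.0% ± 1.93 in controls and 90.5% ± 2.70 with H2O2 (SD, n = 3 each), and the groups did not overlap.

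The remaining 3p strands were scarce. miR-99a-3p was at 43.3, 52.3 and 65.5 CPM in the co-treatment controls and at 41.3, 48.5 and 25.6 CPM in the co-treated H2O2 libraries, which overlapped. In pre-treatment the controls were at 45.1 and 35.8 CPM, and all 3 H2O2 libraries were higher, at 76.8, 60.2 and 90.0 CPM. Neither comparison passed, with log2FC -0.50 (SE 0.29, adjusted p = 0.209) in co-treatment and 0.87 (SE 0.32, adjusted p = 0.167) in pre-treatment (edgeR's exact test). The pre-treatment value was 1.10 without control 1 and 1.00 without control 2. The difference between the responses in the experiments did pass, at 1.39 log2 units (SE 0.46, adjusted p = 0.0365, edgeR's quasi-likelihood interaction test). With miR-99b-5p, this made 2 of 6 members whose response differed between the experiments, where 27.3% of the 945 miRNAs tested did. With a GC offset the difference of miR-99a-3p was 2.00 (adjusted p = 0.0155), and without pre-treatment control 1 it was 1.36 (adjusted p = 0.0421, the same test). It no longer passed with scaling by library totals (1.28, adjusted p = 0.0525), with a replicate block (1.26, adjusted p = 0.149), or without co-treatment control 3, co-treated H2O2 1 or 3, or pre-treated H2O2 1 or 3 (0.98 to 1.45, adjusted p = 0.0612 to 0.134).

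For miR-99a the 5p to 3p ratio was 45.5 to 73.7 in the co-treatment controls and 60.5 to 91.9 in the co-treated H2O2 libraries, which overlapped. The ratio reached 38.0 and 173.0 in the pre-treatment controls and 38.4 to 52.1 in the pre-treated H2O2 libraries. Control 1 was just below that range and control 2 far above it.

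miR-100-3p was near the limit of detection, set at 3 counts per library. It had 9, 0 and 9 counts in the co-treatment controls and 11, 3 and 1 counts in the co-treated H2O2 libraries. The pre-treatment controls had 4 and 3 counts and their H2O2 libraries 19, 8 and 12, so these groups did not overlap. Both controls were below the low-count filter of 0.721 CPM, so miR-100-3p entered the pre-treatment test only through its H2O2 libraries. The lack of overlap and the pre-treatment log2FC are therefore descriptions and no support for a change. log2FC was -0.42 (SE 0.91, adjusted p = 0.775) in co-treatment and 1.69 (SE 0.69, adjusted p = 0.164) in pre-treatment (edgeR's exact test), neither of which passed. The pre-treatment value was 1.92 without control 1 and 1.81 without control 2, and the co-treatment value was 0.28 with a GC offset.

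Of the 11 listed miRNAs made from the same 3 clusters, 10 could be tested, and let-7a-2-3p was too scarce, at 0 to 5 counts per library. These neighbours include let-7 miRNAs, known for promoting differentiation, and miR-125 miRNAs, known for roles in neuronal differentiation. Sequences of let-7a and miR-125b also arise from other loci, so their counts are not those of 1 cluster. In co-treatment none of the 10 was called by edgeR's exact test (0 of 10, with 2 at an unadjusted p below 0.05, miR-125a-5p and miR-125a-3p), and the quasi-likelihood test also called 0. In pre-treatment 1 of 10 was called as lowered and none as raised. Over all miRNAs tested, 26.2% were called in co-treatment and 9.91% were called as lowered in pre-treatment. The neighbours' median log2FC was 0.31 in co-treatment and -0.26 in pre-treatment, the latter being 0.04 without control 1 and -0.09 without control 2.

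By cluster, the median of the neighbours of miR-99b had the sign of the change of miR-99b-5p in both experiments. The neighbours' values carry no GC offset, and the part of GC content in this shared sign was not tested. In the miR-99b cluster the median log2FC of the 4 neighbours was 0.52 in co-treatment and -0.60 in pre-treatment. In the miR-99a cluster it was 0.12 and -0.08 (4 neighbours), and in the miR-100 cluster 0.31 and 0.06 (2 tested neighbours). In pre-treatment these medians were -0.37, 0.34 and 0.22 without control 1, and -0.71, -0.01 and 0.25 without control 2, for the clusters of miR-99b, miR-99a and miR-100. miR-125a-3p was at 117, 129 and 113 CPM in the co-treatment controls and at 189, 156 and 199 CPM in the co-treated H2O2 libraries, which did not overlap (log2FC 0.57, SE 0.26, adjusted p = 0.107, edgeR's exact test). The pre-treatment controls were at 320 and 190 CPM, and the H2O2 libraries at 120, 122 and 85.6 CPM. All H2O2 libraries were below both controls, and the level fell 2.38-fold (log2FC -1.25, SE 0.33, adjusted p = 0.0241, edgeR's exact test). The quasi-likelihood test gave adjusted p = 0.0660, and log2FC was -0.78 without control 1 and -1.30 without control 2. Its response differed between the experiments by -1.83 log2 units (SE 0.41, adjusted p = 0.00555, edgeR's interaction test), and by -1.60 (adjusted p = 0.00637) without pre-treatment control 1.

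let-7e-5p, made from the hairpin next to miR-99b, had log2FC 0.48 (SE 0.24, adjusted p = 0.195) in co-treatment and -0.61 (SE 0.25, adjusted p = 0.204) in pre-treatment by edgeR's exact test. The pre-treatment value was -0.61 without control 1 and -0.26 without control 2. The difference between these responses was -1.08 (SE 0.35, adjusted p = 0.0318, edgeR's interaction test), and it was -1.34 (adjusted p = 0.0104) without pre-treatment control 1 and -1.01 (adjusted p = 0.0209) without control 2. miR-125a-5p had log2FC 0.61 (SE 0.24, adjusted p = 0.104) in co-treatment and -0.59 (SE 0.57, adjusted p = 0.525) in pre-treatment, where control 1 was at 146064 CPM and control 2 at 28120 CPM. Control 1 was 5.19-fold above control 2 here, the reverse of the order seen for miR-99a-5p and miR-100-5p, and log2FC was 1.06 without control 1 and -1.09 without control 2. The difference of its responses did not pass (-1.25, SE 0.60, adjusted p = 0.138, edgeR's interaction test), and it was 0.19 (adjusted p = 0.771) without pre-treatment control 1 and -1.98 (adjusted p = 0.000203) without control 2. let-7e-3p had log2FC -0.09 and -0.42, with a difference of -0.31 (SE 0.38, adjusted p = 0.567, edgeR's interaction test). Its pre-treatment value was -0.14 without control 1 and -0.33 without control 2.

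The pattern of each 5p strand over the 11 libraries was set beside those of 403 miRNAs with a mean of at least 10 CPM, by the root-mean-square difference of centred log2 levels, which is 0 for the same pattern. The nearest to miR-99a-5p were miR-10a-5p (0.161), miR-10b-5p (0.194) and miR-2355-3p (0.227), against a median of 0.654 over all. miR-10a-5p, shown because it was nearest and is a relative in sequence, carries a different seed:
hsa-miR-10a-5p: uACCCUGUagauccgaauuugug
It shared an unbroken run of 10 bases with miR-99a-5p (GUAGAUCCGA) and of 11 bases with miR-100-5p. The libraries and their depth are shared by all such comparisons, which carry no test. The base composition of these miRNAs was not the same, with a GC content of 43.5% in miR-10a-5p and 50% in miR-99a-5p.

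The likeness of miR-99a-5p, miR-10a-5p and miR-10b-5p included the pre-treatment controls, where control 2 was 3.62-fold, 3.30-fold and 2.89-fold above control 1. Neither relative was called in either experiment, with log2FC of -0.08 and -0.18 for miR-10a-5p and of -0.42 and -0.28 for miR-10b-5p in co-treatment and pre-treatment. Without control 1 the pre-treatment values were -0.71 and -0.76, and without control 2 they were 1.24 and 1.00, so that the sign rested on which control was kept. The nearest to miR-99b-5p were miR-3679-5p (0.166), miR-23b-5p (0.193) and its neighbour miR-125a-3p (0.220), against a median of 0.847. The nearest to miR-100-5p were miR-585-3p (0.323), miR-532-5p (0.373) and miR-146b-5p (0.375), against a median of 0.804. No miRNA was among the 3 nearest of more than 1 of the 5p strands.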

How the data were processed

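Small RNA was measured in 11 SH-SY5Y libraries, grouped by their labels (co-treatment, 3 controls and 3 H2O2; pre-treatment, 2 controls and 3 H2O2). The study describes biological triplicates, and 1 outlier sample, removed by the authors, was not analysed here. Counts per mature miRNA were made by the authors from QIAseq libraries with Cutadapt 2.10, Bowtie2 2.4.1 on hg19 and HTSeq 0.7.2, and deposited raw, not normalized. The use of molecular identifiers and the mismatches allowed are not given in the sources used here. The authors' deposited tables of log2 fold changes, log CPM, p-values and FDR were not used.

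Totals were 5343953 to 8927582 counts per library, and limits of 3 counts cover counting error only. A miRNA entered a test when its CPM exceeded that of 5 counts in the smallest library (0.936 for co-treatment and for all 11 libraries, 0.721 for pre-treatment) in 3 or more co-treatment libraries, or in 2 or more for the other fits. These were tested with the exact test of edgeR 4.0.16 (R 4.3.3) with TMM scaling, adjusted by Benjamini-Hochberg over all miRNAs tested. Standard errors and the interaction came from its quasi-likelihood fit. CPM levels printed were scaled by TMM over all 11 libraries together, and log2FC within each experiment. Ratios of strands are from counts. Alternatives were DESeq2 1.42.0, other scalings, filters and thresholds, a replicate block, one fit of both experiments, a GC offset (lowess, span 0.5, for the 88.6% and 88.5% of miRNAs tested in co-treatment and pre-treatment, and the 89.1% tested over both, that have a RefSeq sequence) and each library left out. The scripts were tested on simulated data.

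The miRNAs named are the 6 members, their cluster neighbours, the 3 nearest patterns of each 5p strand, the relatives miR-10a-5p and miR-10b-5p, and markers. Members and lists were chosen with earlier results of these data known. Sequences came from RefSeq, and positions from GRCh37.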

Additional observations from a re-analysis of the deposited data

Results flagged for a closer look

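The response of miR-99b-5p to H2O2 differed between the experiments by -2.03 log2 units (pre-treatment minus co-treatment, SE 0.35, adjusted p = 0.00211, edgeR's quasi-likelihood interaction test), with 3 of 3 H2O2 libraries above all controls in co-treatment and 3 of 3 below both controls in pre-treatment. The response of miR-99a-3p differed by 1.39 log2 units (SE 0.46, adjusted p = 0.0365, same test), with 3 of 3 H2O2 libraries above both controls in pre-treatment and overlapping groups in co-treatment. Of the 945 miRNAs tested, 27.3% passed this test. With a GC offset miR-99b-5p no longer passed it. miR-99a-3p no longer passed with scaling by library totals, with a replicate block or without some single libraries. Experiment and any batch between the experiments cannot be told apart for either miRNA.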

How the results depend on the processing

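Of the 6 members, 1 was called in co-treatment, beside 26.2% of all miRNAs. The count was 0 with no low-count filter (10.7% of all miRNAs called), a log2FC minimum of 1 (19.9%) or a replicate block (14.1%). It was also 0 with one fit of both experiments (8.89%), a GC offset (6.71%), or a replicate block with GC offset (0%). In pre-treatment 1 was called, beside 15.3% of all miRNAs. With the quasi-likelihood test it was 0, on all miRNAs (1.96% called) and on those with a sequence (1.56%). The count was also 0 with no low-count filter (4.02%), a replicate block (1.73%), a GC offset (0.26%), or a replicate block with GC offset (0%). Leaving out 1 library gave 0 to 1 calls in co-treatment, beside 12.5% to 31.6% of all miRNAs. It gave 0 without H2O2 1, 2 or 3 of pre-treatment, beside 1.55%, 1.08% and 1.91%. With 1 control left there, an exact test chosen after seeing the data, which assumes that this control varies like the H2O2 libraries, called 3 members without control 1 and 5 without control 2, beside 31.5% and 52.6% of all miRNAs, with medians over all of 0.07 and 0.21. It called miR-99a-5p in opposite directions, with log2FC of -0.94 and 1.15 (adjusted p = 1.77e-05 and 3.20e-06, edgeR's exact test). The difference between responses passed for 2 members, and for 1 with scaling by library totals, a GC offset or a replicate block (miR-99b-5p was lost with the GC offset, miR-99a-3p with the others), and for 1 to 4 with 1 library left out (4 without pre-treatment control 2, where 47.4% of all miRNAs passed).

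Some signs turned near 0, and others over wide ranges as single libraries were left out. In co-treatment, log2FC of miR-99b-3p was -0.17 with a GC offset and -0.18 with the block added, that of miR-100-3p was 0.28 and 0.21, and that of miR-100-3p with 1 library left out was -1.44 to 0.072. The difference in responses of miR-99b-3p was -0.074 with library totals, -0.0018 with TMM in each experiment apart, -0.034 with DESeq2 and -0.28 to 0.13 with 1 library left out. That of miR-99a-5p was 0.074 with no low-count filter, 0.10 with a GC offset and 0.14 with a replicate block. With 1 library left out it ran from -0.91 without pre-treatment control 1 to 1.15 without control 2. The difference of miR-100-5p ran from -0.23 to 1.97 between the same fits, so both signs rested on which control was kept. miR-99b-5p kept its sign in each experiment and in their difference under all alternatives run. The median log2FC over all miRNAs moved by less than 0.1 under the other scalings.

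Libraries with the same replicate number did not regularly deviate together (r = 0.03, -0.18 and -0.20 in co-treatment, 0.27 and -0.04 in pre-treatment), and the labels name no pairs. The numbers were therefore not taken as pairs. This check cannot exclude pairing, because the groups are small and the deviations of the 2 pre-treatment controls mirror each other. With the replicate block, miR-99b-5p had log2FC 0.73 (adjusted p = 0.0906) in co-treatment and -1.19 (adjusted p = 0.363) in pre-treatment, and its difference of responses was -1.92 (adjusted p = 0.0185, edgeR's quasi-likelihood test). The causes of these changes were not tested.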
